A study of Saccharomyces cerevisiae with 18 samples.

Results

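The cytosolic large-subunit ribosomal protein genes RPL1 to RPL34 of budding yeast were followed by nascent RNA sequencing. The set was fixed by gene name and held 60 of the 6692 genes in the count files, which encode 34 proteins as 26 paralog pairs and 8 single-copy genes. All 60 passed the filter on low counts, among 5567 genes tested. The libraries came from W303 strains that express the auxin receptor OsTIR1 from the GPD1 promoter, which makes proteins tagged with IAA7 degradable on auxin addition. Spt20-AID carries Spt20-3xHA-IAA7, Med16/Spt20-AID carries Med16-3xV5-IAA7 as well, and Med16/Taf13-AID carries Med16-3xV5-IAA7 with Taf13-3xHA-IAA7. Each strain received the auxin 3-IAA at 0.5 mM or an equal volume of the solvent DMSO for 30 min, as equal fractions of split cultures, followed by 6 min of labelling with 4-thiouracil. Each condition had 3 biological replicates, which made 18 libraries. No library came from an untagged strain, so depletion and the auxin's own effect cannot be told apart. The files of the Med16/Taf13-AID libraries carry another facility project code than the others, so strain and whatever that code stands for cannot be told apart either. The degrons act on proteins, so transcript levels do not check the depletion.

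Ribosomal protein genes are among the most heavily transcribed genes of growing yeast, and their transcription follows growth conditions through Rap1, Fhl1, Ifh1 and Sfp1. Many of their promoters lack a canonical TATA box and are served by the general factor TFIID, which Rap1 contacts. Taf13 is a TFIID subunit, Spt20 holds the SAGA coactivator together, and Med16 joins the Mediator tail to its core. Most yeast ribosomal proteins are encoded by paralogs left by a whole-genome duplication, and the copies often have different promoters.

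Sense reads on genes numbered 874975 to 6189719 per library, with a median of 3547704, and the RPL genes held 18692 to 134889 of them. The authors' *Schizosaccharomyces pombe* spike-in size factors scaled the libraries, so a normalised count is a sense read count divided by that factor. The spike-in was added in a fixed ratio of optical densities, so the scale is per unit of optical density. A change in cells per unit of optical density and a change in labelled RNA per cell cannot be told apart. Over all tested genes the 3-IAA response on this scale had a median log2 change of 0.38 in Spt20-AID, 0.31 in Med16/Spt20-AID and -1.68 in Med16/Taf13-AID. Changes were therefore also read under TMM scaling, which sets the bulk of genes near 0 and gave medians of 0.02, 0.02 and -0.02. Reads that mapped to several places made up 56.1% to 79.1% of mapped reads, with the 3 highest shares, 77.7% to 79.1%, in the Med16/Taf13-AID 3-IAA libraries, and their part in the results was not tested.

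The genes lie on 14 chromosomes. The median coding length was 525 bases, against 1254 bases over tested genes, and 39 of 60 had an intron (65%, against 5.22%). In the DMSO libraries, levels per kilobase of coding sequence ranged from 234 normalised counts for RPL15B to 9600 for RPL10, with a median of 2118. RPL10, which joins the subunit late in its maturation, was followed by RPL3 at 5913 and by RPL15A at 5089 normalised counts per kilobase. These levels divide uniquely mapped reads by the full coding length, so copies that share sequence with a paralog read low. That was not corrected, and the order is not a ranking of transcription. RPL3 and RPL10 were also the 2 most counted genes of the set. The RPL15 proteins are core components of the subunit, and their genes stood far apart in this range.

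Paralogs were told apart by the reads to different degrees, because only uniquely mapped reads were counted. Coding identity ran from 78.9% for RPL22A and RPL22B to 99.4% for RPL1A and RPL1B. For 32 genes every 75-base window of the spliced coding sequence was unique in the genome, whereas for 6 genes fewer than 50% were. These 6 were RPL1A and RPL1B (28.4% of windows unique), RPL4A and RPL4B (37.8%), and RPL11A and RPL11B (44.1%). The counts of these 3 pairs rest on few distinguishing bases. Antisense reads came to at most 1.05% of sense and antisense reads together, for RPL31B. The 75-base window with the most differences is shown for 4 pairs, as the coding strand of assembly R64, with the bases that differ between the copies in capitals. RPL1A and RPL1B show how little separates the closest pair, and the other 3 are pairs, among several, whose copies differed in response in the results that follow.
RPL1A: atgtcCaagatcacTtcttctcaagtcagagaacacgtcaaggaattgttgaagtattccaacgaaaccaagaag
RPL1B: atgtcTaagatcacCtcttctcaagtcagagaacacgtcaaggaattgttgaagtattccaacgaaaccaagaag
RPL4A: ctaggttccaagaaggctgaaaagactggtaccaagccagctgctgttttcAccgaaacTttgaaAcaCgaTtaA
RPL4B: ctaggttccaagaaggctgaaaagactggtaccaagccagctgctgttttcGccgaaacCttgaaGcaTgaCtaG
RPL15A: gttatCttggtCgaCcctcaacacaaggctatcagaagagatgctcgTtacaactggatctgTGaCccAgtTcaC
RPL15B: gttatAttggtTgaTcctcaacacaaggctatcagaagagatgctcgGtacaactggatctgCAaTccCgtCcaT
RPL31A: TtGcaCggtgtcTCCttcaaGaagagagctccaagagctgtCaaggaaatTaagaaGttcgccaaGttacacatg
RPL31B: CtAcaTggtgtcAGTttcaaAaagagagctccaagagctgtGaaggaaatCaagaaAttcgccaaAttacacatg
The windows lie at chrXVI:135790-135864 (RPL1A), chrVII:254641-254715 (RPL1B), chrII:301180-301254 (RPL4A), chrIV:472867-472941 (RPL4B), chrXII:202123-202197 (RPL15A), chrXIII:509881-509955 (RPL15B), chrIV:322704-322778 (RPL31A) and chrXII:931275-931349 (RPL31B). RPL1A, RPL1B, RPL4A, RPL4B and RPL31A lie on the plus strand and the other 3 on the minus strand. The RPL1 window held 2 differing bases, the RPL4 window 6, the RPL15 window 10 and the RPL31 window 11.

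In Spt20-AID the RPL genes as a set lay below the median of all tested genes after 3-IAA. The share of gene reads on the set, which no scaling changes, was 2.40%, 2.40% and 2.35% in the 3-IAA libraries, against 3.05%, 2.90% and 2.6% in the DMSO libraries. The groups did not overlap, and every 3-IAA library was lower. Without RPL3 and RPL10 the shares were 2.04%, 2.05% and 2.0% with 3-IAA, against 2.54%, 2.42% and 2.17% with DMSO. On the spike-in scale the median log2 change of the set was -0.08, against 0.38 over all tested genes, and 50 of 60 genes had a value below 0. The gap between the set and all tested genes was -0.55, -0.46 and -0.29 in the libraries numbered 1, 2 and 3.

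**Figure D1:**
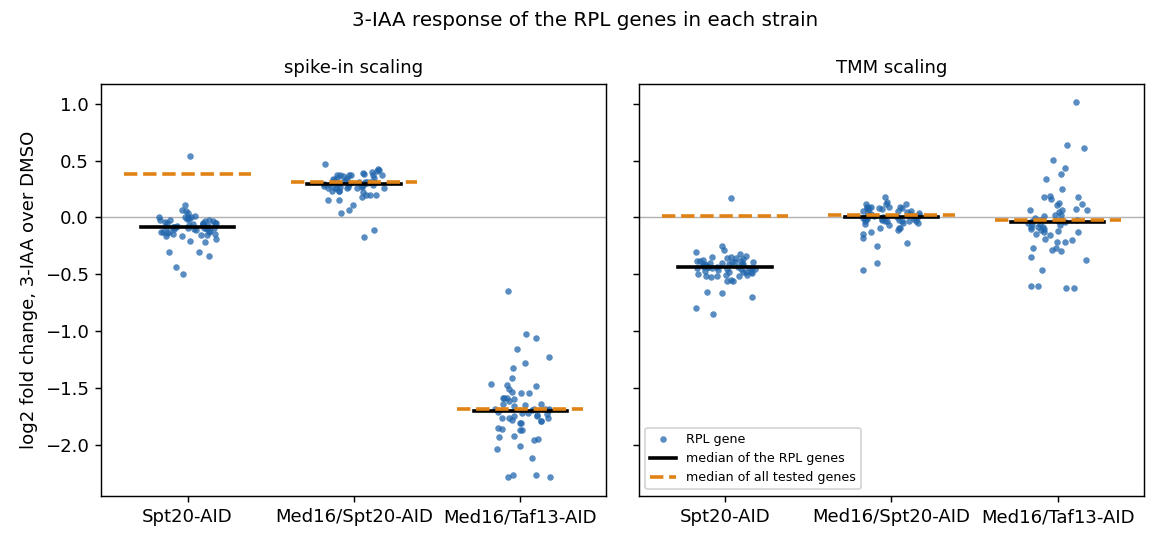
Log2 change of each of the 60 RPL genes, 3-IAA over DMSO, in each strain (points), with spike-in scaling on the left and TMM scaling on the right. Black bars mark the median of the set and dashed orange bars the median of all tested genes: in Spt20-AID the black bar lies lower at -0.08 against 0.38, and in Med16/Taf13-AID both lie near -1.7 with spike-in scaling.

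Few single genes passed the test on the spike-in scale (edgeR quasi-likelihood test, Benjamini-Hochberg over 5567 genes, adjusted p under 0.05). RPL4A, RPL3, RPL23A and RPL30 fell and RPL15B rose, among all tested genes of which 8.08% fell and 54% rose. Under TMM scaling 59 of 60 RPL genes fell, against 25.1% of all tested genes (17.1% rose), with a median of -0.44. The member left over, RPL15B, had a TMM value of 0.17 (adjusted p = 0.26). Without the libraries numbered 3, the spike-in count of genes that fell was 35 and the median was -0.33. Without those numbered 1 or 2 the counts were 0 and 1 and the median reached 0.06, and a correction for gene length and GC content also left 0 (edgeR, with 5 of 60 lower at an unadjusted p under 0.05 in the uncorrected fit). In the DMSO library numbered 3 the median RPL gene had 707 normalised counts, against 1077 and 968 in the other DMSO libraries. The median tested gene moved with it, at 208 against 261 and 255 normalised counts. The TMM count stayed between 55 and 59 when each pair of libraries was left out, and was 59 with the length and GC correction (28.2% of all tested genes).

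**Figure D2:**
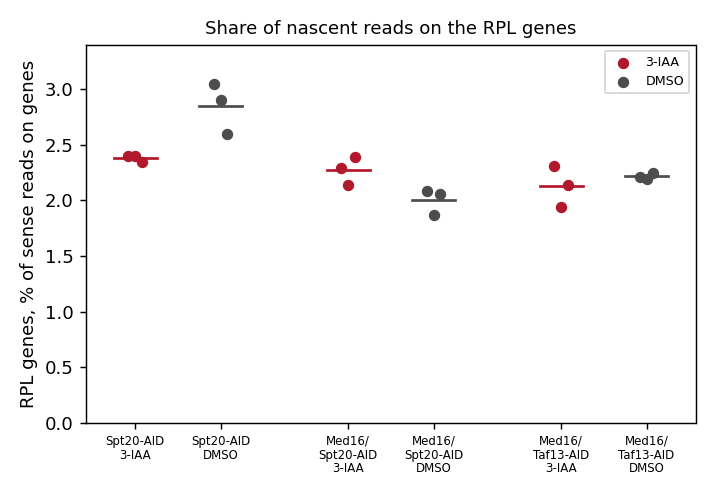
Sense reads on the 60 RPL genes as a percent of sense reads on all genes, in every library (points) with the group mean (bars), by strain and treatment. The 3-IAA libraries lie below the DMSO libraries in Spt20-AID, above them in Med16/Spt20-AID, and overlap them in Med16/Taf13-AID.

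RPL4A (YBR031W, chrII:300166-301254), whose protein lines the exit tunnel, had 672, 604 and 740 normalised counts in Spt20-AID with 3-IAA, against 1114, 1016 and 720 with DMSO. The DMSO library numbered 3 lay within the 3-IAA range, so the groups overlapped. The change was -0.50 (SE 0.14, adjusted p = 0.00127), and was -0.85 under TMM scaling. RPL3 (YOR063W, chrXV:444686-445849), at the peptidyl transferase centre, had 4407, 3827 and 5050 normalised counts with 3-IAA, against 7026, 6278 and 4651 with DMSO. Here too only the DMSO library numbered 3 lay among the 3-IAA values. Its change was -0.43 (SE 0.15, adjusted p = 0.00777). RPL23A, an interface protein, changed by -0.34 (SE 0.14, adjusted p = 0.0284) and RPL30, a bridge protein that also binds its own transcript, by -0.31 (SE 0.14, adjusted p = 0.0455, and 0.0763 with a term for the replicate number). With the 3 libraries numbered 1, 2 or 3 left out in turn, RPL4A ran from -0.74 to -0.37, RPL3 from -0.69 to -0.30 and RPL23A from -0.61 to -0.20. The calls of RPL3, RPL23A and RPL30 were lost without the libraries numbered 1 or 2, and that of RPL4A without those numbered 1.

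RPL15B (YMR121C, chrXIII:509734-510348) went the other way. It had 127, 109 and 122 normalised counts in Spt20-AID with 3-IAA, against 95.2, 75.5 and 74.5 with DMSO. Every 3-IAA library was higher, and RPL15B was the only one of the 60 genes whose groups did not overlap on the spike-in scale (49.2% of all tested genes did so as higher and 6.75% as lower). Its change was 0.54 (SE 0.17, adjusted p = 0.00455). RPL9B and RPL11A followed at 0.11 (adjusted p = 0.52) and 0.07 (adjusted p = 0.68) without passing the test.

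In Med16/Spt20-AID the set lay higher with 3-IAA, as did the median of all tested genes on the spike-in scale. Its share of gene reads was 2.30%, 2.14% and 2.39% in the 3-IAA libraries, against 2.09%, 1.87% and 2.05% in the DMSO libraries, without overlap. On the spike-in scale 26 of 60 genes rose (46.2% of all tested genes, with 10.3% lower) and 34 did not pass, with a median of 0.29 beside 0.31 over all tested genes. For 37 genes every 3-IAA library was above every DMSO library, which 54.2% of all tested genes also showed. The count of genes that rose was 46 when only the 6 libraries of the strain were fitted, and 12, 0 and 1 without the libraries numbered 1, 2 and 3 (edgeR; 35 genes at an unadjusted p under 0.05 with all libraries, 23 by DESeq2). Under TMM scaling the median was 0.00, and RPL10, RPL3 and RPL4A fell, against 21.6% of all tested genes.

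RPL9B (YNL067W, chrXIV:499681-500256) had the highest change in Med16/Spt20-AID. Its normalised counts were 1787, 1633 and 1660 with 3-IAA, against 1410, 1081 and 1188 with DMSO, and the groups did not overlap. The change was 0.47 (SE 0.14, adjusted p = 0.00372), followed by RPL8A at 0.42 (adjusted p = 0.0081) and RPL11A, a 5S particle protein, at 0.42 (adjusted p = 0.00938). At the other end stood RPL10, RPL3 and RPL4A with spike-in values of -0.17, -0.11 and 0.04, none of which passed the test. RPL10 had 7344, 6483 and 6064 normalised counts with 3-IAA, against 8644, 6597 and 7180 with DMSO, and the groups overlapped. Relative to the bulk of genes, RPL10 changed by -0.46 (adjusted p = 1.6e-05), RPL3 by -0.40 (adjusted p = 5.6e-05) and RPL4A by -0.25 (adjusted p = 0.02, TMM scaling).

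The responses of the same genes in the first 2 strains were compared by an interaction test. RPL23A had 737, 624 and 627 normalised counts in Med16/Spt20-AID with 3-IAA, against 658, 442 and 519 with DMSO. In Spt20-AID it had 357, 312 and 418 with 3-IAA, against 532, 491 and 358 with DMSO. The groups overlapped in both strains. The response in Med16/Spt20-AID minus that in Spt20-AID was 0.64 for RPL23A (SE 0.20, adjusted p = 0.0425), the only member called on the spike-in scale, where 0.611% of all tested genes were called higher and 2.64% lower. On the spike-in scale that call held with a stricter count minimum and without the Spt20-AID libraries numbered 3 (0.91), and was lost in the other alternatives run, with values of 0.40 to 0.72. RPL4A followed at 0.54 (adjusted p = 0.123), and RPL15B and RPL10 stood lowest at -0.17 and -0.01. The median of this difference was 0.37 over the set and -0.10 over all tested genes. With TMM scaling 52 of 60 genes were called higher, against 8.19% of all tested genes (7.24% lower), with a median of 0.43. Without the Spt20-AID libraries numbered 3, the spike-in count was 54, and the TMM counts ran from 32 to 57 when each set was left out. The 8 genes not called under TMM included RPL15B at -0.09 and RPL10 at 0.05. Across the 60 genes the changes in Med16/Spt20-AID and in Spt20-AID had a Pearson r of 0.56 and a Spearman rho of 0.57, as a description over genes that are not independent replicates.

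In Med16/Taf13-AID all 60 genes fell on the spike-in scale, as 98.2% of all tested genes did while 0.0719% rose. The median was -1.70, beside -1.68 over all tested genes, and the 3-IAA and DMSO libraries did not overlap for any member (97.6% of all tested genes were lower and 0.0359% higher without overlap). The share of gene reads was 2.31%, 1.94% and 2.14% in the 3-IAA libraries, against 2.21%, 2.19% and 2.25% in the DMSO libraries, with overlap. The members were spread more widely here, with an SD over the 60 log2 changes of 0.30, against 0.11 in Med16/Spt20-AID and 0.14 in Spt20-AID, a difference that was not tested. Its 3-IAA libraries held only 18692 to 21313 reads on the set, against 82386 to 134889 in the libraries of Spt20-AID and Med16/Spt20-AID. The part of depth was not tested, and whether all tested genes also spread more widely is not given here. Under TMM scaling 7 genes rose and 10 fell, against 15% and 14.6% of all tested genes. Both interaction tests called all 60 genes lower in Med16/Taf13-AID on the spike-in scale, beside 93.9% of all tested genes against Med16/Spt20-AID and 95.5% against Spt20-AID. With TMM scaling 9 were higher and 9 lower than in Med16/Spt20-AID (20.3% and 14% of all tested genes), and 41 were higher and 1 was lower than in Spt20-AID (19.1% and 13.9%).

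RPL18B (YNL301C, chrXIV:63570-64562), whose protein lies in the subunit body, fell least. It had 396, 395 and 275 normalised counts with 3-IAA, against 540, 601 and 534 with DMSO, and its change was -0.65 (SE 0.15, adjusted p = 1.93e-05). Relative to the bulk of genes it rose by 1.01 (adjusted p = 4e-09, TMM scaling). RPL10 (YLR075W, chrXII:282927-283592), with 3271, 2754 and 2792 normalised counts with 3-IAA against 5598, 6770 and 5542 with DMSO, changed by -1.02 (SE 0.15). RPL9B changed by -1.06 (SE 0.15) and RPL3 by -1.16 (SE 0.15). The TMM values of these 3 genes, 0.64, 0.61 and 0.51, were all called higher.

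The strongest reductions were those of RPL15B, RPL27B and RPL16A. RPL15B had 36.7, 29 and 17.6 normalised counts with 3-IAA, against 133, 137 and 137 with DMSO, and changed by -2.28 (SE 0.24). RPL27B had 270, 179 and 198 with 3-IAA, against 1021, 1140 and 968 with DMSO, and changed by -2.28 (SE 0.16). RPL16A had 290, 212 and 271 with 3-IAA, against 1142, 1514 and 1054 with DMSO, and changed by -2.27 (SE 0.16). All 3 were also called lower under TMM scaling, at -0.62, -0.62 and -0.60. RPL15B was the least counted member and its values carry the largest error.

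The 8 single-copy genes have no paralog that could share their reads. In Spt20-AID their median change was -0.19, with RPL3 and RPL30 called lower, while RPL28, known for mutations that give cycloheximide resistance, missed the threshold at -0.30 (adjusted p = 0.0522). RPL5 of the 5S particle changed by -0.16, RPL10 by -0.16, RPL29 by -0.21, RPL32 by -0.13 and RPL25, the docking site for the signal recognition particle at the tunnel exit, by -0.09, all short of the test. In Med16/Spt20-AID the median was 0.19 and RPL25 rose (0.32, SE 0.14, adjusted p = 0.0429); with a term for the replicate number the adjusted p was 0.0595. The changes of the others ran from -0.17 for RPL10 to 0.28 for RPL5 and did not pass. In Med16/Taf13-AID the median was -1.54, against -1.73 over the 52 genes with a paralog. The other 6 values lay close together, between -1.64 for RPL5 and -1.48 for RPL28, and RPL3 and RPL10 stood above them.

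Grouped by place in the subunit, the genes had medians close to each other. In Spt20-AID the median was -0.16 for the 5 genes of the peptidyl transferase centre and tRNA sites, -0.14 for the 5 genes of bridges and the interface, -0.09 for the 13 genes of the exit tunnel and rim, -0.05 for the 4 genes of the L1 stalk and P-stalk base, and -0.02 for the 3 genes of the 5S particle. The 30 other genes of the body had a median of -0.06. In Med16/Spt20-AID the L1 stalk and P-stalk base, with RPL1 and RPL12, had the highest median, 0.38, with 3 of 4 genes called higher (46.2% of all tested genes). The lowest was that of the peptidyl transferase group, 0.15, with RPL2A called higher. In Med16/Taf13-AID the medians ran from -1.79 for the exit tunnel group to -1.48 for the peptidyl transferase group.

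Paralogs were compared by the log2 ratio of A over B reads within each library, which no library scaling changes. In Spt20-AID and Med16/Spt20-AID most copies had close values, with a median absolute difference of response of 0.06 and 0.08 over the 26 pairs. In Med16/Taf13-AID it was 0.21, and 8 pairs differed by more than 0.5 on the log2 scale, against 1 pair in Spt20-AID. The A copy was favoured in 13 pairs and the B copy in 13. The 3-IAA libraries of Med16/Taf13-AID held the fewest reads on the set, and the part of depth in these differences was not tested. With 3 libraries against 3, the two-sided exact permutation test of a pair cannot give a p below 0.1, so no pair could pass the threshold.

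**Figure D3:**
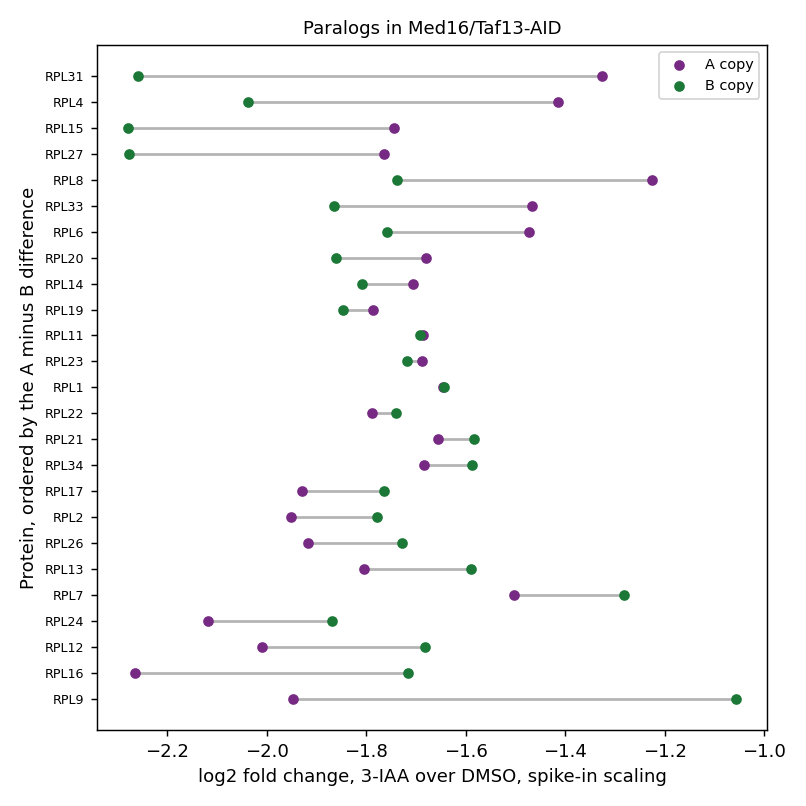
Log2 change, 3-IAA over DMSO, of the A copy (purple) and the B copy (green) of the pairs reported here in Med16/Taf13-AID, with spike-in scaling, ordered by the difference. RPL31 stands at the top, where the B copy fell more, and RPL9 at the bottom, where the A copy fell more.

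RPL31, at the rim of the tunnel exit, had the largest difference in favour of the A copy. The log2 A over B ratio was 0.98, 1.23 and 1.58 in Med16/Taf13-AID with 3-IAA, against 0.23, 0.45 and 0.25 with DMSO. Every 3-IAA value was higher, and the difference was 0.95 (SE 0.19, exact p = 0.1). RPL9, near the GTPase centre, had ratios of -1.0, -1.32 and -0.95 with 3-IAA, against -0.13, -0.25 and -0.18 with DMSO, a difference of -0.90 (SE 0.12, exact p = 0.1). In the other strains these differences kept their sign and were nearer 0: 0.04 and -0.20 in Spt20-AID, and 0.11 and -0.15 in Med16/Spt20-AID. The RPL9 groups did not overlap in Med16/Spt20-AID either (SE 0.05, exact p = 0.1). The difference between strains was not tested for pairs.

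The RPL4 ratio differed between treatments in every strain. It was -0.55, -0.46 and -0.50 in Spt20-AID with 3-IAA, against -0.12, -0.10 and -0.08 with DMSO, a difference of -0.40 (SE 0.03, exact p = 0.1). In Med16/Spt20-AID it was -0.54, -0.51 and -0.53 with 3-IAA, against -0.17, -0.27 and -0.15 with DMSO (-0.33, SE 0.04, exact p = 0.1). In Med16/Taf13-AID the ratio was higher instead, at 0.58, 0.38 and 0.41 with 3-IAA, against -0.18, -0.06 and -0.26 with DMSO (0.62, SE 0.09, exact p = 0.1). The groups did not overlap in any strain, although only 37.8% of 75-base windows tell these copies apart.

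RPL15 showed the largest difference in Spt20-AID. Its ratio was 4.32, 4.36 and 4.52 with 3-IAA, against 5.13, 5.25 and 4.93 with DMSO, a difference of -0.70 (SE 0.11, exact p = 0.1) as the scarce B copy gained on the A copy. In Med16/Taf13-AID the sign was the opposite, 0.60 (SE 0.29), with ratios of 4.88, 4.78 and 5.64 with 3-IAA against 4.46, 4.69 and 4.34 with DMSO. The 3-IAA library numbered 3 stood apart, and RPL15B had only 17.6 normalised counts in it. In Med16/Spt20-AID the value was -0.11 (SE 0.12) with overlapping groups. RPL23 came after RPL15 and RPL4 in Spt20-AID, at -0.29 (SE 0.04, exact p = 0.1). On the spike-in scale only RPL23A was called lower, with RPL23B at -0.05. Under TMM scaling both copies were called lower, RPL23A at -0.70 and RPL23B at -0.41. In Med16/Spt20-AID the largest differences after RPL4 were those of RPL7, at 0.24 (SE 0.07, exact p = 0.1), and RPL33, at 0.19 (SE 0.06, exact p = 0.1).

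**Figure D4:**
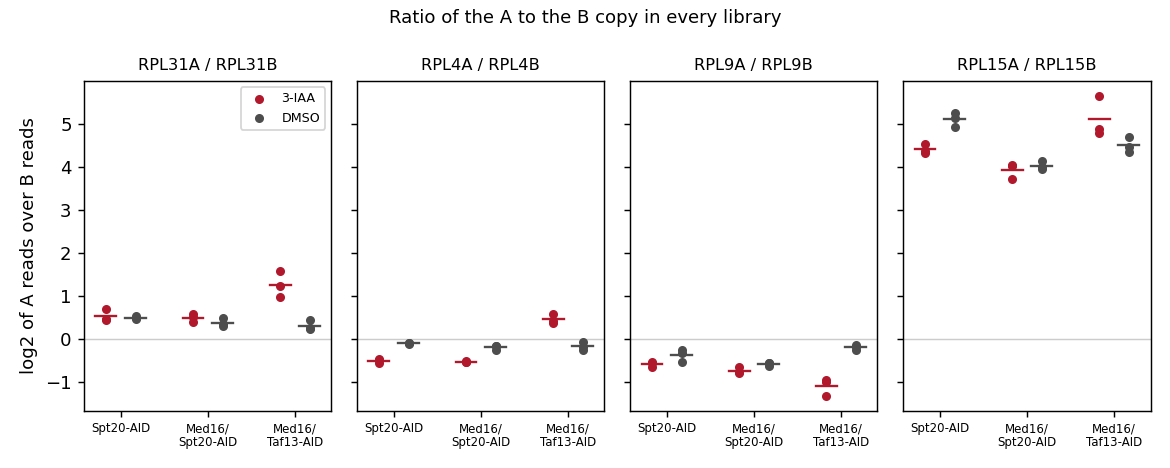
Log2 ratio of A reads over B reads in every library (points) with the group mean (bars), 3-IAA in red and DMSO in grey, for RPL31, RPL4, RPL9 and RPL15. In Med16/Taf13-AID the 3-IAA libraries lie apart from the DMSO libraries in all 4 pairs. RPL4 and RPL15 also separate in Spt20-AID, and RPL4 and RPL9 in Med16/Spt20-AID. The 4 pairs were picked for a large difference in a strain, so their separation is not a test. How many of the 26 pairs separate is not given here.

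Promoters were searched for 3 short patterns in the 500 bases before the coding start, on both strands. The Rap1 core was written CCNTACA and was chosen after several spellings had been compared. It was found in 33 of 60 RPL promoters (55%), against 15.9% of 6006 promoters. TATAAA was found in 28 (46.7%), against 60.5%, and the Abf1 pattern, searched by its published consensus, in 5 (RPL3, RPL4A, RPL8B, RPL13B and RPL15A; 8.33%, against 18.1%). A match is a string of letters and not evidence of binding, and some windows reach into a neighbouring gene. The stretches shown are those of some genes named above that stood apart in a strain or from their paralog, all of which hold a match. RPL15B, RPL16A, RPL9A and RPL9B also stood apart, held none of the 3 patterns and are not shown. Matched letters are in capitals, and the stretches are written in the direction of the gene.
RPL3: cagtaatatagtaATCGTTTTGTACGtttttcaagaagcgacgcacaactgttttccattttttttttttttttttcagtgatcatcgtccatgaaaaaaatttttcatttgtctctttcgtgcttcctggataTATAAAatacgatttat
RPL4A: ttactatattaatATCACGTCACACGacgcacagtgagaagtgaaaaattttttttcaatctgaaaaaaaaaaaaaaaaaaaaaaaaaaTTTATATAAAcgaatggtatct
RPL4B: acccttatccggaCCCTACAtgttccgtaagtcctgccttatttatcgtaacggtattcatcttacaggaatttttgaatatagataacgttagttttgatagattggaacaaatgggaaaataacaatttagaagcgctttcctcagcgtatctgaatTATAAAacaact
RPL10: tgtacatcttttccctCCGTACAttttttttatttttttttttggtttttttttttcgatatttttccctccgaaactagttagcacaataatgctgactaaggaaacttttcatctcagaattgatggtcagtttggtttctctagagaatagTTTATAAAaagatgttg
RPL15A: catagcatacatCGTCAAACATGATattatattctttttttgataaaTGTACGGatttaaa
RPL18B: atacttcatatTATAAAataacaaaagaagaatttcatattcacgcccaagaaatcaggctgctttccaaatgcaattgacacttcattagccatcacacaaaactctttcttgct
RPL23A: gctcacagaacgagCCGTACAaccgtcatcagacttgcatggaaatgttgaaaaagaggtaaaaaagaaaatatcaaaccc
RPL31A: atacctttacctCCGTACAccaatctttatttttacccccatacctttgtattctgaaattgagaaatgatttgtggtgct
RPL31B: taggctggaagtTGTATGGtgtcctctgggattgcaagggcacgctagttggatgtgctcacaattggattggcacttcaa
They lie at chrXV:444441-444591 (RPL3, plus strand), chrII:299971-300081 (RPL4A, plus), chrIV:471438-471608 (RPL4B, plus), chrXII:282662-282832 (RPL10, plus), chrXII:202810-202870 (RPL15A, minus), chrXIV:64777-64892 (RPL18B, minus), chrII:60924-61004 (RPL23A, minus), chrIV:321791-321871 (RPL31A, plus) and chrXII:931970-932050 (RPL31B, minus) of R64.

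RPL3 and RPL4A, the 2 lowest members in Spt20-AID, both hold an Abf1 match and TATAAA. RPL3 has an Abf1 match that opens 232 bases before the coding start and TATAAA at 111, and RPL4A has an Abf1 match at 182 and TATAAA at 102, where TTTATA of the other strand overlaps it. Neither has the Rap1 core in the window. RPL8B and RPL13B also hold an Abf1 match and TATAAA, the TATAAA on the other strand and beside a Rap1 core, and had values of -0.03 and -0.01 in Spt20-AID. RPL10 has the Rap1 core at 249 and TATAAA at 109, again overlapped on the other strand. RPL4B, whose response parted from that of RPL4A, has the Rap1 core at 402 and TATAAA at 256. RPL15A has an Abf1 match at 268 and the Rap1 core at 233, both on the other strand, beside a further Rap1 core at 417 that is outside the stretch. RPL18B, the member that fell least in Med16/Taf13-AID, has only TATAAA at 319. RPL23A, RPL31A and RPL31B have the Rap1 core at 251, 423 and 283, that of RPL31B on the other strand. Matches outside the stretches are left out for the other genes. This grouping was noticed after the values were seen.

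The medians of members with and without the Rap1 core or TATAAA lay close to each other. With the Rap1 core the median change was -0.09 in Spt20-AID, 0.29 in Med16/Spt20-AID and -1.72 in Med16/Taf13-AID, and without it -0.08, 0.31 and -1.66. With TATAAA the medians were -0.09, 0.27 and -1.65 in the same order, and without it -0.08, 0.30 and -1.75. The 5 members with an Abf1 match had Spt20-AID changes of -0.50 (RPL4A), -0.43 (RPL3), -0.16 (RPL15A), -0.03 (RPL8B) and -0.01 (RPL13B). The median of the set was -0.08 there, and the contrast was not tested. Under TMM scaling in Med16/Taf13-AID, 6 of 28 genes with TATAAA rose and 3 fell, and 1 of 32 without it rose and 7 fell, beside 15% and 14.6% of all tested genes. The shares of all tested genes were not split by TATAAA, and this contrast was not tested.

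The other large-subunit genes, RPL35 to RPL43 and the P-stalk genes RPP0 to RPP2B, were read in the same way, and whether they differed from the set was not tested. Under TMM scaling 20 of these 21 genes fell in Spt20-AID (25.1% of all tested genes), and on the spike-in scale their median was -0.11 in Spt20-AID, 0.33 in Med16/Spt20-AID and -1.44 in Med16/Taf13-AID. Of 8 genes for transcription factors of ribosomal protein promoters (RAP1, FHL1, IFH1, SFP1, HMO1, CRF1, ABF1 and REB1), 6 rose and 1 fell in Spt20-AID on the spike-in scale, where 54% and 8.08% of all tested genes did, with RAP1 at 0.43 (SE 0.14, adjusted p = 0.00586). The gene that fell was CRF1, a corepressor of ribosomal protein genes, at -1.02 (SE 0.27, adjusted p = 0.000721). Under TMM scaling 1 of the 8 rose and 1 fell in Spt20-AID (17.1% and 25.1% of all tested genes), and RAP1 stood at 0.05 (adjusted p = 0.62). CRF1 also fell in Med16/Spt20-AID, at -2.09 (SE 0.25, adjusted p = 1.25e-15). Of the 5 genes for dedicated chaperones of large-subunit proteins, 4 rose in Med16/Spt20-AID on the spike-in scale (46.2% of all tested genes). They included ACL4, the chaperone of Rpl4, at 0.58 (SE 0.14, adjusted p = 0.000379), and SQT1, that of Rpl10, at 0.41 (SE 0.14, adjusted p = 0.00974). Under TMM scaling 2 rose (11.9%), ACL4 at 0.29 (adjusted p = 0.0046) and SYO1 at 0.22 (adjusted p = 0.027). SQT1 stood at 0.12 under TMM scaling (adjusted p = 0.22).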

How the data were processed

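Reads of 4tU-labelled RNA were mapped by the authors with STAR 2.6.1a, and the deposited values are raw counts of uniquely mapped reads per gene for each library. The sense-strand counts of 6692 genes were used here. The authors' spike-in size factors were recovered by non-negative least squares from the mean normalised counts of 1950 genes in the study's supplement, of which part was used here. For 1396 of them, those whose mean reached 100, the recovered means had a median relative error of 6.88e-05%. The factors are the scaling only, and no result was taken from that table. The read length of these libraries is not given in the sources used here.

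The 5567 genes whose sense counts averaged 10 or more were fitted with the edgeR 4.0.16 quasi-likelihood test in R 4.3.3 over 18 libraries and 6 groups, with Benjamini-Hochberg adjustment over all tested genes and a threshold of 0.05. Responses of strains were compared by interaction contrasts. Cultures were split between 3-IAA and DMSO, although no source ties the replicate numbers to cultures. Same-numbered deviations from the group means correlated at 0.0693 to 0.403 in Spt20-AID and 0.0317 to 0.193 in Med16/Taf13-AID. In Med16/Spt20-AID they correlated at 0.226 to 0.468, where all 3 pairs passed 0.1. In all, 16 of 18 libraries correlated best with their own number, so signs of a pairing were seen in every strain and most clearly in Med16/Spt20-AID. The main fit leaves the pairing out, and the block was kept as an alternative. Paralogs were compared by exact permutation of log2 ratios within libraries. The fit was tested on simulated data. Gene models, windows and promoters came from RefSeq assembly R64, where 5482 of the tested genes had a model. Sequences were aligned with Biopython 1.88, and tables and tests used scipy 1.17.1, numpy 2.4.6 and pandas 2.3.3 in Python 3.11.15, with figures from matplotlib 3.10.9. Library depth limits the low-count members most, and counting error and replicate spread are both in the SE.

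Alternatives were TMM and median-of-ratios scaling, DESeq2 1.42.0, a count minimum of 50 or none, counts of both strands, only the libraries compared, a replicate block, a correction for gene length and GC content, and each replicate left out. Named genes were the 3 highest and 3 lowest members in each strain, the 2 highest and 2 lowest in each difference between strains, the 3 pairs with the largest difference per strain, and the 8 single-copy members, of which 1 pair is not reported here. RPL15A, RPL2A, CRF1, RAP1, ACL4, SQT1, SYO1 and the RPL15 pair in further strains were named beyond that rule after their values were seen. The members and lists were chosen with earlier results of these data known.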

Additional observations from a re-analysis of the deposited data

Results flagged for a closer look

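The responses of strains differed by the edgeR interaction test with spike-in scaling in the following results. For Med16/Spt20-AID minus Spt20-AID, 1 of 60 RPL genes was called higher (0.611% of all tested genes), RPL23A at 0.64 on the log2 scale. For Med16/Taf13-AID minus Med16/Spt20-AID, 60 of 60 were called lower, as were 93.9% of all tested genes, with RPL15B at -2.65, RPL16A at -2.60, RPL18B at -0.92 and RPL10 at -0.85. For Med16/Taf13-AID minus Spt20-AID, 60 of 60 were called lower, as were 95.5% of all tested genes, with RPL15B at -2.82, RPL16A at -2.18, RPL3 at -0.72 and RPL18B at -0.67. The Med16/Taf13-AID files carry another facility project code, so strain and what that code stands for cannot be told apart.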

How the results depend on the processing

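The scaling moved most counts, and the cause was not tested. In Spt20-AID, TMM and median-of-ratios scaling each gave 0 RPL genes higher and 59 lower. The count lower was 2 by DESeq2, 1 with only the libraries compared, and 0 with the length and GC correction, with or without the replicate block. In Med16/Spt20-AID both scalings gave 0 higher and 3 lower, and only the libraries compared gave 46 higher. In Med16/Taf13-AID TMM gave 7 higher and 10 lower, and median-of-ratios 8 and 9. For Med16/Spt20-AID minus Spt20-AID the count higher was 52 with TMM and 53 with median-of-ratios, and 0 by DESeq2, without a count filter, with counts of both strands, with only the libraries compared, with the replicate block, and with the length and GC correction alone or with the block (edgeR unless named, 25 of 60 at an unadjusted p under 0.05 in the unaltered fit). For Med16/Taf13-AID minus Med16/Spt20-AID both scalings gave 9 higher and 9 lower, and for Med16/Taf13-AID minus Spt20-AID 41 higher and 1 lower. Under TMM and median-of-ratios scaling the median of all tested genes was 0.016 and 0.037 for Spt20-AID, 0.018 and 0.041 for Med16/Spt20-AID, and -0.021 and 0 for Med16/Taf13-AID. That of the RPL genes was 0.00066 and 0.025 in Med16/Spt20-AID, and -0.042 and -0.021 in Med16/Taf13-AID.

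The following combinations were chosen after seeing the data: TMM with the length and GC correction, TMM with the replicate block, and TMM with each replicate left out. TMM with the length and GC correction gave 59 lower in Spt20-AID, 0 higher and 5 lower in Med16/Spt20-AID, and 8 higher and 9 lower in Med16/Taf13-AID. Its differences gave 46 higher (Med16/Spt20-AID minus Spt20-AID), 9 higher and 9 lower (Med16/Taf13-AID minus Med16/Spt20-AID), and 31 higher and 1 lower (Med16/Taf13-AID minus Spt20-AID). Its medians were -0.017 over all genes in Spt20-AID, 0.0055 over the RPL genes and 0.00011 over all genes in Med16/Spt20-AID, and -0.014 and -0.015 in Med16/Taf13-AID.

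Correlations of same-numbered deviations reached above 0.1 for every pair in Med16/Spt20-AID only, and 16 of 18 libraries correlated best with their own number. With the replicate block 3 RPL genes were lower in Spt20-AID and 18 higher in Med16/Spt20-AID, against 26 without it, and the calls of RPL25 in Med16/Spt20-AID and RPL30 in Spt20-AID were lost. TMM with the replicate block gave 0 higher and 59 lower in Spt20-AID, 1 higher and 5 lower in Med16/Spt20-AID, and 9 higher and 14 lower in Med16/Taf13-AID. Its differences gave 58 higher, then 9 higher and 10 lower, and 43 higher and 1 lower, in the order above. Its medians were 0.017 over all genes in Spt20-AID, 0.0031 and 0.018 over the RPL genes and all genes in Med16/Spt20-AID, and -0.048 and -0.021 in Med16/Taf13-AID.

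Some named genes changed sign, given as TMM then median-of-ratios values. In Spt20-AID these were RPL9B (-0.25, -0.23) and RPL11A (-0.29, -0.27). In Med16/Spt20-AID they were RPL4A (-0.25, -0.23), RPL28 (-0.13, -0.11, and -0.018 with counts of both strands), RPL29 (-0.14, -0.12), RPL30 (-0.058, -0.034), RPL32 (-0.053, -0.029) and, with TMM, RPL5 (-0.014). In Med16/Taf13-AID they were RPL18B (1.01, 1.03), RPL10 (0.64, 0.66), RPL9B (0.61, 0.63), RPL3 (0.51, 0.53), RPL28 (0.18, 0.20), RPL29 (0.12, 0.14), RPL30 (0.12, 0.14), RPL32 (0.11, 0.13), RPL25 (0.045, 0.066) and RPL5 (0.019, 0.041). In the differences they were RPL10 for Med16/Spt20-AID minus Spt20-AID (0.052, 0.055, and 0.13 with counts of both strands), RPL10 (1.10, 1.10) and RPL18B (1.03, 1.02) for Med16/Taf13-AID minus Med16/Spt20-AID, and RPL18B (1.36, 1.36) and RPL3 (1.3, 1.3) for Med16/Taf13-AID minus Spt20-AID. With the length and GC correction, without and with the replicate block, the Spt20-AID values of RPL25 (0.011, 0.018), RPL29 (0.093, 0.096) and RPL32 (0.048, 0.058) turned positive.

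With each replicate left out, on the spike-in scale, the count ran from 0 to 35 lower in Spt20-AID, 0 to 12 higher in Med16/Spt20-AID, and 0 to 54 higher for Med16/Spt20-AID minus Spt20-AID, the highest and the lowest counts of Spt20-AID coming without replicate 3 and replicate 1. The median of the RPL genes in Spt20-AID ran from -0.33 to 0.06, and that of all genes from 0.18 to 0.50. In Med16/Spt20-AID they ran from 0.25 to 0.33 and from 0.28 to 0.34, and in Med16/Taf13-AID from -1.80 to -1.55 and from -1.73 to -1.59. With TMM scaling the counts were 0 to 0 higher and 55 to 59 lower in Spt20-AID, 0 to 0 higher and 2 to 3 lower in Med16/Spt20-AID, and 6 to 8 higher and 5 to 10 lower in Med16/Taf13-AID. For the differences they were 32 to 57 higher, then 4 to 8 higher and 6 to 10 lower, and 23 to 43 higher and 0 to 1 lower. The TMM medians of all genes ran from 0.015 to 0.041 in Spt20-AID, 0.016 to 0.048 in Med16/Spt20-AID and -0.012 to -0.00018 in Med16/Taf13-AID, and those of the RPL genes from -0.0054 to 0.028 in Med16/Spt20-AID and -0.07 to 0.041 in Med16/Taf13-AID. The median absolute paralog difference ran from 0.0599 to 0.073 in Spt20-AID, 0.0584 to 0.0781 in Med16/Spt20-AID and 0.224 to 0.248 in Med16/Taf13-AID. Signs turned for RPL9B (-0.18 to 0.28), RPL11A (-0.14 to 0.18), RPL25 (-0.35 to 0.067) and RPL32 (-0.34 to 0.03) in Spt20-AID, RPL4A (-0.024 to 0.081) in Med16/Spt20-AID, and RPL10 (-0.17 to 0.23) for Med16/Spt20-AID minus Spt20-AID. RPL15B, with the fewest reads of the set, is the member most limited by depth.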
